A study of Arabidopsis thaliana with 64 samples.

Results

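The ATG8 transcripts of Arabidopsis thaliana leaves were followed across all libraries with values. They were taken by locus identifier from the RPM table and comprise 9 of its 28775 genes, ATG8A to ATG8I (AT4G21980, AT4G04620, AT1G62040, AT2G05630, AT2G45170, AT4G16520, AT3G60640, AT3G06420 and AT3G15580). All 9 passed the filter on low values, as did 19824 genes in all. AT3G15580 is called ATG8I here; RefSeq lists APG8H as its symbol and ATG8I as a synonym. Leaves came from atg7-2, DSK2 RNAi, bes1-D and bri1-301 plants and from WT. Plants of 4 weeks, kept in 16 hours of light a day, were starved of fixed carbon for 5 days (2 libraries per genotype), dehydrated for 4 hours (3 libraries) or left as controls (3 libraries). These are 40 libraries in 15 groups. No plant carried a deletion or treatment that all groups shared, as far as the labels state. atg7-2 carries an allele of ATG7, bri1-301 is a weak allele of the brassinosteroid receptor, bes1-D is a gain-of-function allele of the transcription factor BES1, and DSK2 RNAi is a knockdown of the ubiquitin receptors DSK2A and DSK2B. The labels say neither whether a line is a single clone or event nor whether plants were pooled.

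ATG8 is a small ubiquitin-like protein. The protease ATG4 trims it to a terminal glycine, ATG7 activates it, and ATG3 joins that glycine to a membrane lipid on the growing autophagosome, the vesicle that carries cell contents to the vacuole. There ATG8 binds cargo receptors, among them NBR1 and DSK2, and in plants autophagy is known to sustain leaves through carbon starvation. Arabidopsis has a family of ATG8 genes rather than a single one.

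The coding sequences end differently around that glycine, and the ends are shown for this reason. Each runs 5′ to 3′ on the coding strand of RefSeq TAIR10.1, from 30 bases before the glycine codon to the stop codon, with the glycine codon in capitals.
ATG8A: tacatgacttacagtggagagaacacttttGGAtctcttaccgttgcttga
ATG8B: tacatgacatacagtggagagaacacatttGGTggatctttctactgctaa
ATG8C: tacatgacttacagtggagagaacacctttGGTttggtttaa
ATG8D: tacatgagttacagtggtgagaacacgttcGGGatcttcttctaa
ATG8E: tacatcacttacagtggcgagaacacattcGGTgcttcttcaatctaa
ATG8F: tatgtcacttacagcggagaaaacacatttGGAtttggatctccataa
ATG8G: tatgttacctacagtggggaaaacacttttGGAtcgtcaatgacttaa
ATG8H: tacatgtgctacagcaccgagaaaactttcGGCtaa
ATG8I: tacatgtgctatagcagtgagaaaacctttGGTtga
In ATG8A to ATG8G, 2 to 5 codons lay between the glycine and the stop. In ATG8H and ATG8I none did, so the glycine was already the last residue. The closest pair was ATG8A and ATG8B, with 86.8% identical bases over the aligned coding sequence, and the most distant was ATG8G and ATG8I with 58.3%. Reads of 50 bases could still tell the genes apart along almost all of their length. ATG8A and ATG8B shared 4 windows of 50 bases with each other, which is 0.473% of the windows of ATG8A and 0.332% of those of ATG8B. ATG8I overlaps AT3G15578 on the opposite strand and shared 14.2% of its windows with it. The labels and notes do not say whether counting used strand, so over that stretch reads of ATG8I and of its antisense partner cannot be told apart. ATG8A overlaps AT4G21990 on the opposite strand in the annotation but shared no window of 50 bases with it. No other ATG8 gene shared a window or overlapped a gene.

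The RPM table holds reads scaled to library size, and values came out as whole reads, 26634819 to 30375860 in each library. A count of 3 reads was 0.101 to 0.114 RPM, while the lowest ATG8 value in any library was 7.06 RPM (204 reads, ATG8G), so no ATG8 gene was near the limit of detection. Replicates are not stated to be separate plants or batches, so a p-value here reflects how much these libraries varied, and that variation may be technical. Leaf mesophyll markers (6 genes, RBCS, RCA and LHCB) summed to 546 to 1521 RPM in starved, 15661 to 29857 RPM in dehydrated and 19394.5 to 38097 RPM in control libraries, and at least 5 of 6 reached 1 RPM in every group. Floral markers (7 genes) summed to 11.2 to 39.6 RPM in starved and 1.45 to 17.3 RPM in control libraries. Epidermis markers (3 genes) summed to 117 to 466 RPM in starved and 527 to 865 RPM in control libraries, and guard cell markers (3 genes) to 4.95 to 32.5 RPM in starved and 10.2 to 48.9 RPM in control libraries. Phloem markers (2 genes) summed to 11.9 to 62.7 RPM in starved and 57.6 to 138 RPM in control libraries. Xylem markers summed to 0.0682 to 0.82 RPM in starved and 19.9 to 68.3 RPM in control libraries, and 0 of 3 reached 1 RPM in any starved group. Their part in the results was not tested, and in whole leaves fewer cells of a type and less RNA per cell cannot be told apart. Of the genes changed in the lines, DSK2A averaged 6.63 ± 0.72 RPM in DSK2 RNAi controls and 69.0 ± 7.50 RPM in WT controls (SD, n = 3 each). DSK2B had 14.3 to 15.8 RPM in DSK2 RNAi controls against 131 to 135 RPM in WT controls, but 125 and 186 RPM in starved DSK2 RNAi leaves against 210 and 220 RPM in starved WT leaves. ATG7 reads were not fewer in atg7-2 (14.2 to 17.9 RPM in controls, against 10.3 to 12.0 RPM in WT controls), so the level does not check that label.

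Libraries also differed in how strongly values rose with transcript length. The slope of log2(RPM + 0.5) on log2 length ranged from -0.626 to 0.763 log2 units per doubling. ATG8 transcripts are short, 712 bases (ATG8H) to 1149 bases (ATG8B) as used for values per kb. The slope uses the longest transcript of each gene, which in the family is at most 1259 bases (ATG8F). Slopes were 0.679 and 0.763 in starved atg7-2, 0.483 and 0.650 in starved DSK2 RNAi, -0.203 and -0.626 in starved bes1-D, -0.136 and 0.739 in starved bri1-301 and -0.179 and 0.001 in starved WT leaves.

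Unstressed WT leaves held mainly 2 ATG8 transcripts. Divided by transcript length, ATG8F stood at 470 ± 127 RPM per kb and ATG8E at 256 ± 32.5 RPM per kb (SD, n = 3), each apart from its neighbours in every library. ATG8A, ATG8D, ATG8C and ATG8I followed at 62.0 to 81.8 RPM per kb on average, then ATG8B at 36.1 and ATG8H at 31.4 RPM per kb. From ATG8A to ATG8H each overlapped the next, so neighbours in that order do not differ beyond their spread. ATG8G was lowest at 9.49 ± 2.79 RPM per kb, below every other member in every library. In 4 of the 5 genotypes ATG8F led the unstressed leaves; in bes1-D controls ATG8E averaged 408 and ATG8F 399 RPM per kb and the libraries overlapped.

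**Figure D1:**
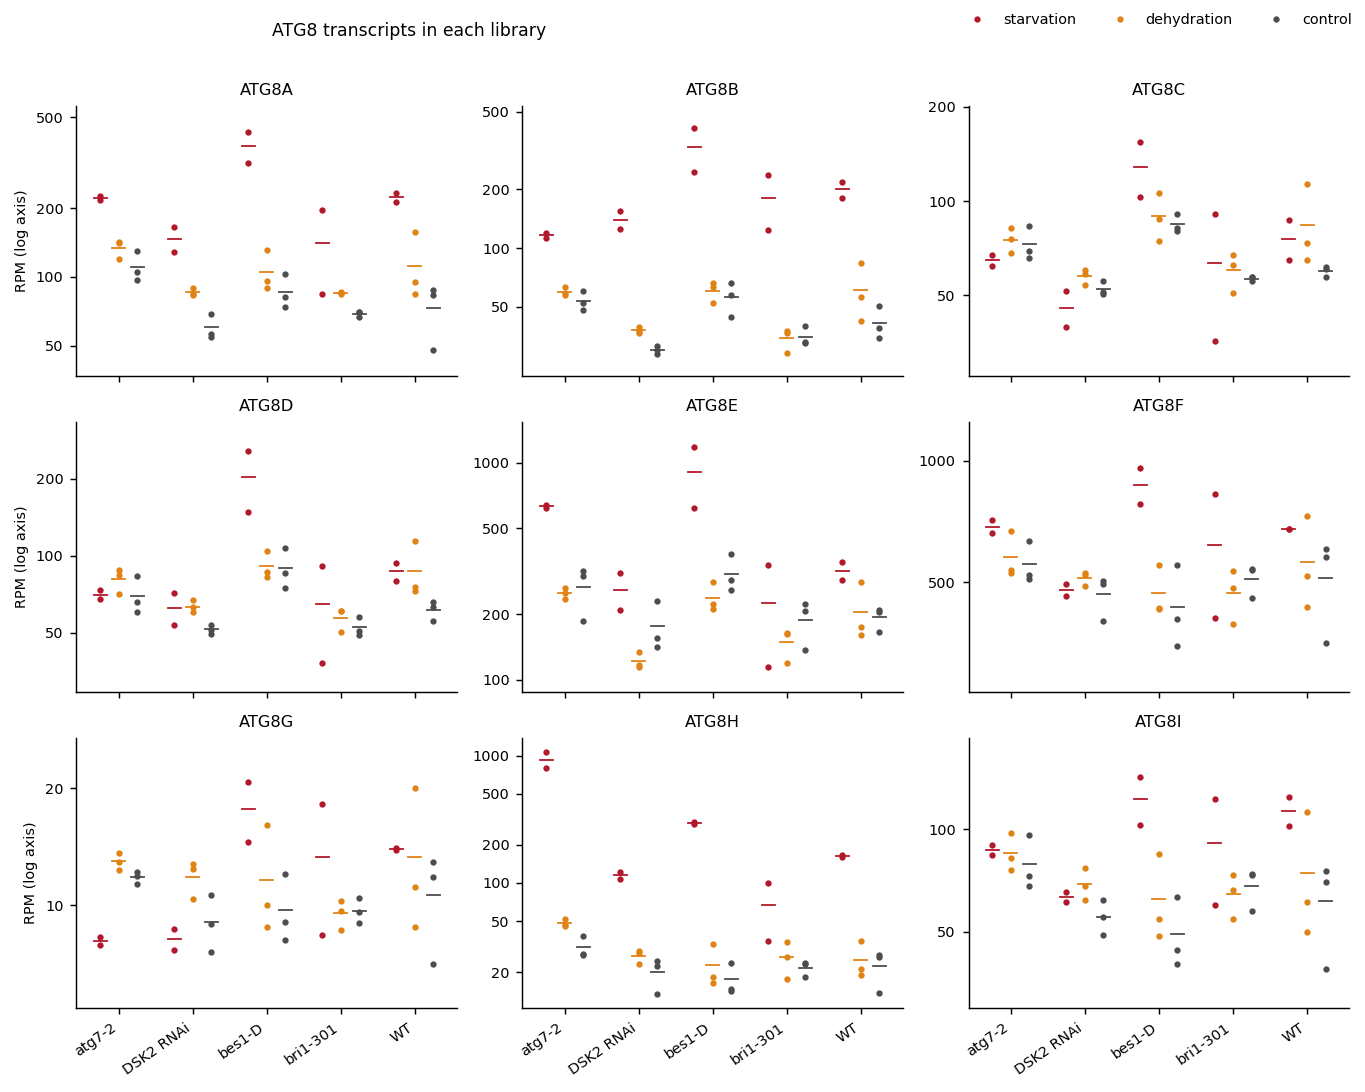
RPM (log axis, a scale of its own for each gene) of the 9 ATG8 transcripts in 40 libraries; points are libraries, bars group means, and colours mark starvation, dehydration and control within each genotype. ATG8H shows the widest range, 13.5 to 1059 RPM, and ATG8F stays between 347 and 961 RPM.

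The question of the first comparison is how the family responds to carbon starvation in WT. ATG8H, ATG8B, ATG8A and ATG8I rose. Their transcripts were 7.52-, 4.81-, 3.14- and 1.90-fold higher in starved than in control leaves, on the log2(RPM + 0.5) scale, which understates changes of low genes. In RPM, ATG8H had 161 and 167 in starved leaves, against 27.1, 13.7 and 26.3 in controls. All starved values lay far above all control values. The log2 change was 2.91 (SE 0.36), with a limma adjusted p of 3.92e-08. ATG8B had 218 and 182 RPM in starved leaves, against 38.9, 34.8 and 50.7 RPM in controls, again with no overlap, and changed by 2.27 (SE 0.25; adjusted p 3.61e-09). ATG8A had 233 and 213 RPM in starved leaves and 83.7, 47.8 and 88.0 RPM in controls, a change of 1.65 (SE 0.27; adjusted p 5.15e-06). ATG8I had 124 and 103 RPM in starved leaves and 69.9, 38.9 and 75.6 RPM in controls, a change of 0.93 (SE 0.30; adjusted p 0.0096). Its call was lost without WT starvation library 1 (adjusted p 0.0946) and without WT control library 2 (0.0863).

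The abundant members changed less in WT. ATG8F had 679 and 678 RPM in starved leaves, against 605, 352 and 578 RPM in controls; the libraries did not overlap but the log2 change of 0.45 did not pass (adjusted p 0.119). ATG8E had 348 and 289 RPM in starved leaves, against 205.7, 210.0 and 165.4 RPM in controls, and its change of 0.72 did not pass either (adjusted p 0.0625). ATG8C, ATG8D and ATG8G, at 0.33, 0.50 and 0.42 log2 units, likewise missed the threshold although no libraries overlapped. All 9 members thus had both starved libraries above the 3 controls, as had 32.3% of all genes. So 4 of 9 were called higher and none lower (6 and 0 with a replicate block by number, 8 and 0 with a block of genotype by number, 6 and 0 with the compared libraries alone, which called 25.1%, 25% and 26.5% of all genes higher), where 24.7% of all tested genes were called higher, 35.7% lower and 60.4% either way. The median log2 change was 0.72 over the 9 and -0.26 over all genes. Scaling by median of ratios or TMM moved the median of all genes by 0.195 and 0.188 log2 units in this comparison and added ATG8F to the calls (adjusted p 0.047 and 0.0481).

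ATG8A, ATG8B and ATG8H were called higher under starvation in each of the 5 genotypes, though not under every alternative in bri1-301. In atg7-2, 4 members were called higher (ATG8A, ATG8B, ATG8E and ATG8H) and 0 lower, where 22.3% of all genes were called higher, 47.2% lower and 69.5% either way. In DSK2 RNAi, 3 were called higher and 0 lower, beside 24.9% of all genes higher, 36% lower and 61% either way. In bes1-D, 9 were called higher, beside 26.1% of all genes higher, 39.9% lower and 66% either way. In bri1-301, 3 were called higher and 0 lower, beside 21.8% higher, 32.3% lower and 54.1% either way. Median-of-ratios scaling moved the median of all genes by 0.125 to 0.475 log2 units over the 5 genotypes, and in atg7-2 higher genes were 48.8% of all calls under it, against 32% without. ATG8H and ATG8B had the largest changes in each line except atg7-2, where ATG8H and ATG8E did.

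In atg7-2, ATG8H reached 795 and 1059 RPM in starved leaves, against 27.9, 27.3 and 38.5 RPM in controls, a 29.3-fold difference (log2 4.87, SE 0.36, adjusted p 4.38e-13). No other ATG8 gene moved as far in any genotype. ATG8E had 641.9 and 619.6 RPM in starved atg7-2 leaves, against 299.5, 185.9 and 317.6 RPM in controls, and changed by 1.27 (SE 0.33; adjusted p 0.0012). ATG8A (log2 1.01) and ATG8B (1.12) rose with no overlap. ATG8F had 661 and 712 RPM in starved leaves and 509 to 632 RPM in controls and did not pass. With the length trend removed 6 members were called higher (23.1% of all genes), ATG8D (0.39, adjusted p 0.00966) and ATG8F (0.46, adjusted p 0.0489) being added. ATG8G was the one member lower in both starved libraries, with 8.3 and 7.9 RPM, against 11.3 to 12.2 RPM in controls, and also did not pass (log2 -0.52; adjusted p 0.112).

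bes1-D was the one genotype in which all 9 members were called. ATG8H had 292 and 303 RPM in starved bes1-D leaves, against 14.7, 23.7 and 14.2 RPM in controls (log2 4.08, SE 0.36, adjusted p 2.97e-11). ATG8E had 622 and 1189 RPM in starved leaves and 258.2, 287.0 and 380.4 RPM in controls, a change of 1.50 (SE 0.33; adjusted p 0.00024). ATG8D had 149 and 257 RPM in starved leaves and 75.2, 85.8 and 107 RPM in controls, and rose by 1.14. ATG8F had 782 and 961 RPM in starved leaves and 406, 551 and 347 RPM in controls, and rose by 1.02. The second starved library was the higher in every member and had the lowest length slope of all libraries, -0.626. Without it the log2 change was 0.28 for ATG8C and 0.57 for ATG8G, against 0.58 and 0.82 with both libraries. That fit leaves 1 starved library, so its count of calls is not read as a result about the family. Removing the length trend left 8 members called, without ATG8C. What share of all genes was called under that setting is not given here.

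Fewest members were called in DSK2 RNAi and bri1-301. In DSK2 RNAi, ATG8B had 154 and 126 RPM in starved leaves against 30.1, 28.7 and 31.4 RPM in controls (log2 2.20), and ATG8H 108 and 121 RPM against 22.2, 13.5 and 24.6 RPM (log2 2.52). ATG8A changed by 1.28 and the 6 other members by -0.21 to 0.57, all with overlapping libraries. With the length trend removed 5 members were called higher (27% of all genes), ATG8D (0.39, adjusted p 0.01) and ATG8E (0.72, adjusted p 0.00454) being added. The 2 starved bri1-301 libraries stood far apart. ATG8H had 100 and 34.9 RPM there, against 23.0, 23.4 and 18.4 RPM in controls (log2 1.44, SE 0.36, adjusted p 0.0011), and ATG8B 237 and 125 RPM against 39.8, 33.1 and 32.5 RPM (log2 2.28). The first library was higher in every member and the length slope differed between them (-0.136 and 0.739). Without the first, ATG8C changed by -0.65, against 0.02 with both libraries. ATG8A then changed by 0.29 and ATG8H by 0.69, against 0.90 and 1.44 with both. Over all alternatives ATG8A ranged from 0.29 to 1.51 and ATG8H from 0.69 to 2.20. Leaving out either starved library leaves 1, so the counts of calls in those fits are not read as a result about the family. In a fit to the compared libraries alone only ATG8B was called in bri1-301, with ATG8A at adjusted p 0.117 and ATG8H at 0.0542. For that fit the share of all genes called is not given here.

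**Figure D2:**
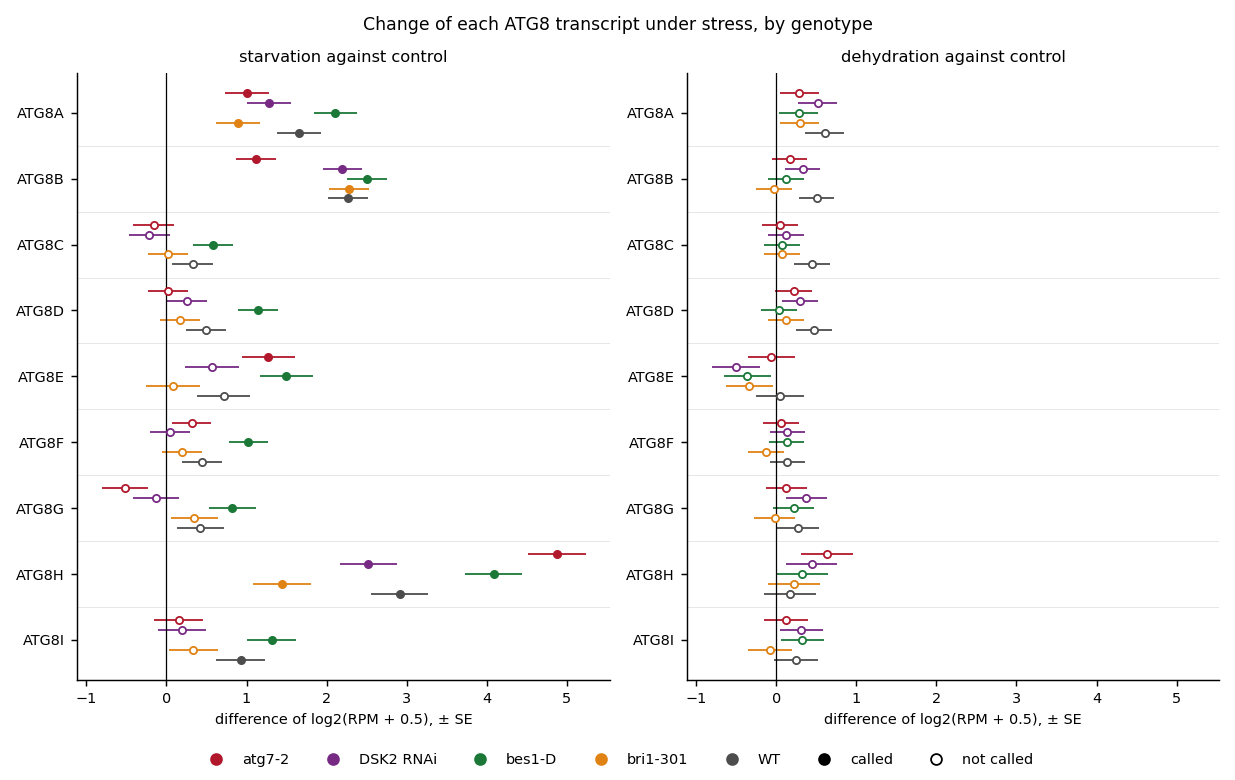
Difference of log2(RPM + 0.5) between starved and control leaves (left) and between dehydrated and control leaves (right) for each ATG8 transcript and genotype; points are limma estimates, bars the SE, filled where called. ATG8A, ATG8B and ATG8H are filled in all genotypes under starvation (1.44 to 4.87 for ATG8H), and nothing is filled under dehydration.

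The summed ATG8 transcripts, per kb, were 3186 and 3549 RPM per kb in starved atg7-2 leaves, 1333 and 1525 in starved DSK2 RNAi, 2930 and 4367 in starved bes1-D, 931 and 2129 in starved bri1-301 and 1921 and 2110 in starved WT leaves. Control libraries held 1158 to 1554 RPM per kb in atg7-2 and 881 to 1223 RPM per kb in WT. The makeup moved with the total, which is described here without a test. ATG8H made up 35.0 and 41.9% of the ATG8 pool in starved atg7-2 leaves and 3.04 to 3.48% in atg7-2 controls. In WT it was 10.7 and 12.2% in starved leaves and 2.19 to 3.18% in controls. ATG8F's share was 18.5 and 19.1% in starved atg7-2 leaves, against 36.3 to 41.4% in atg7-2 controls, and 29.6 and 32.4% in starved WT leaves, against 36.7 to 45.7% in WT controls. By level, ATG8H stood first of 9 in starved atg7-2 leaves, at 1302 ± 262 RPM per kb (SD, n = 2), ahead of ATG8E (833) and ATG8F (631), with no overlap between neighbours. In starved WT leaves its rank was 4 of 9, at 230.5 ± 5.79 RPM per kb, and in WT controls it was next to last.

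**Figure D3:**
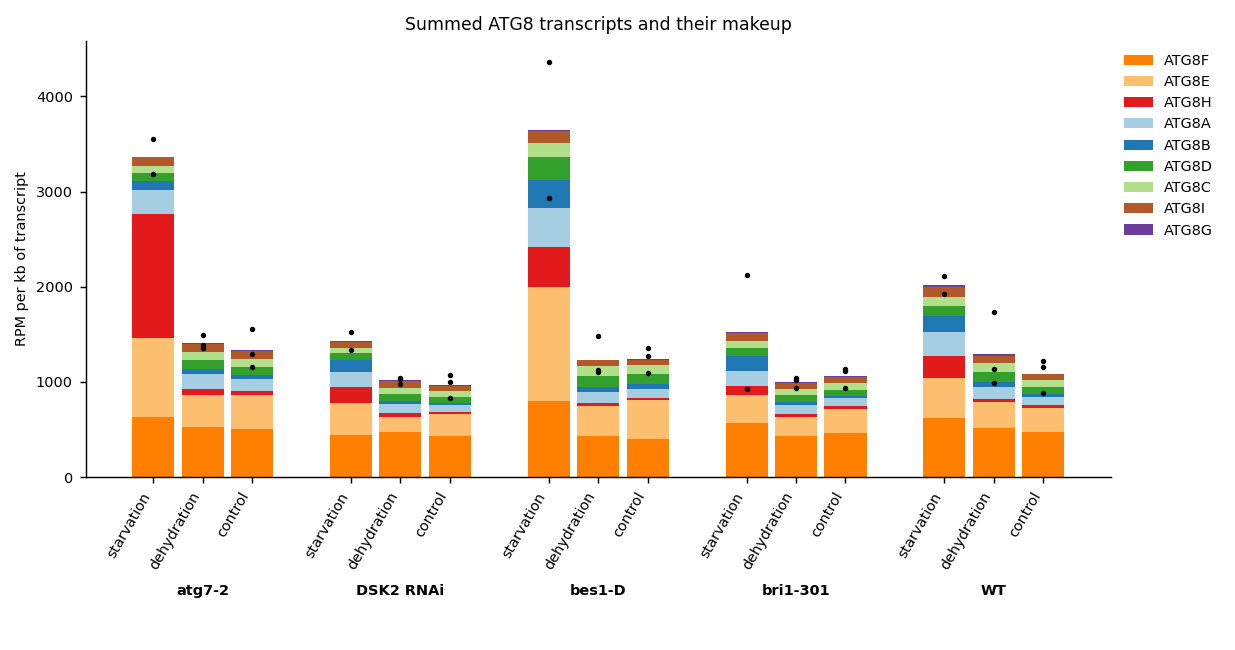
Mean RPM per kb of transcript of the 9 ATG8 genes, stacked, for the 15 groups; black points are the summed values of single libraries. ATG8H makes up a mean of 38.5% of the pool in starved atg7-2 leaves and ATG8F has the largest share in controls of every genotype but bes1-D.

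Dehydration for 4 hours called no ATG8 gene in any genotype. Few genes were called at all, namely 0% in atg7-2, 3.82% in DSK2 RNAi, 1.18% in bes1-D, 0.797% in bri1-301 and 0.298% in WT. By limma, 0 members passed the unadjusted p of 0.05 in atg7-2, 1 in DSK2 RNAi, 0 in bes1-D, 0 in bri1-301 and 3 in WT, where 6.35%, 15.1%, 8.18%, 11.6% and 12.8% of all genes did in that order. edgeR and DESeq2 on the recovered reads also called 0 members in each. RAB18, a gene known to respond to water deficit, had 62.0 to 109.6 RPM in dehydrated and 11.9 to 44.4 RPM in control WT leaves, with no overlap. ATG8A in dehydrated WT leaves had 84.2, 94.6 and 158 RPM, against 83.7, 47.8 and 88.0 RPM in controls. The libraries overlapped and the log2 change of 0.61 did not pass (SE 0.24; adjusted p 0.26). ATG8A's change was positive in all 5 genotypes (0.28 to 0.61), and that of ATG8E was the lowest, -0.50 to 0.05. In DSK2 RNAi, ATG8E had 117, 135 and 114 RPM in dehydrated leaves and 231, 142 and 155 RPM in controls, which did not overlap, yet the adjusted p was 0.476. In DSK2 RNAi 1 member was called in the fit to the compared libraries alone, and 1 with the length trend removed. Shares of all genes called under these settings are not given here, so these single calls are not read as a result about the family. The third dehydrated WT library was the highest in all 9 members and had a slope of -0.266, against a group median of 0.338.

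Mutants were next compared with WT within each treatment. In unstressed leaves limma called 0 of 9 members in atg7-2 (4.74% of all genes called), DSK2 RNAi (0.0656%), bes1-D (15.7%) and bri1-301 (0.963%), and edgeR and DESeq2 also called 0. At an unadjusted p under 0.05 the counts were 1, 0, 3 and 0 in that order, beside 17.8%, 3.48%, 30.5% and 9.44% of all genes, so the share in bes1-D was near that of all genes. The 3 in bes1-D were ATG8C, ATG8D and ATG8E, higher in every bes1-D control library than in any WT control library, as were 11.8% of all genes. ATG8E had 258.2, 287.0 and 380.4 RPM in bes1-D and 205.7, 210.0 and 165.4 RPM in WT (log2 0.66, adjusted p 0.129). In atg7-2 controls ATG8A had 96.8, 105.3 and 129.7 RPM, against 83.7, 47.8 and 88.0 RPM in WT controls, and its change of 0.63 did not pass (adjusted p 0.14). All 9 members of atg7-2 were on the higher side in unstressed leaves and all 9 of DSK2 RNAi on the lower, by medians of 0.37 and -0.19 log2 units, against 0.03 and 0.10 over all genes. With the length trend removed 1 member, ATG8A, was called in atg7-2 controls (0.69, limma adjusted p 0.00752). How many of all genes were called under that setting is not given here, so this call is not read as a result about the family.

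In dehydrated leaves limma likewise called 0 of 9 in atg7-2 (9.42% of all genes called), DSK2 RNAi (0.282%), bes1-D (9.31%) and bri1-301 (1.11%), with 1, 3, 0 and 2 at an unadjusted p under 0.05, where 25%, 33.6%, 20.5% and 20.3% of all genes were, shares near or above those of the members. edgeR called 0 in all 4 and DESeq2 0, 1, 0 and 1. Without WT dehydration library 1, 1 member was called in DSK2 RNAi and 1 in bri1-301. The shares of all genes called under these alternatives are not given here, so these single calls are not read as a result about the family. ATG8H in atg7-2 came nearest. It had 52.5, 45.7 and 46.5 RPM in dehydrated atg7-2 leaves, against 18.9, 21.1 and 35.1 RPM in dehydrated WT leaves, with no overlap (log2 0.98, SE 0.32, adjusted p 0.0502). Without WT dehydration library 3 the change was 1.25 (adjusted p 0.0431), and with the length trend removed it was 1.26 (adjusted p 0.00168), when 3 members were called, all higher, beside 8% of all genes called higher. Over its alternatives the adjusted p ranged from 0.00168 to 0.17.

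In starved leaves atg7-2 was compared with WT first. ATG8H (795 and 1059 RPM in atg7-2, against 161 and 167 RPM in WT) was 5.58-fold higher, with a log2 change of 2.48 (SE 0.39; adjusted p 5.4e-06). ATG8E (641.9 and 619.6 RPM, against 348 and 289 RPM) was higher by 0.99 (SE 0.36; adjusted p 0.0221). ATG8B (113.2 and 119.5 RPM in atg7-2, 218 and 182 RPM in WT) was lower by a change of -0.77 (SE 0.27; adjusted p 0.0172), and ATG8G (8.3 and 7.9 RPM, against 13.9 and 14.1 RPM) by -0.75 (SE 0.32; adjusted p 0.0466). ATG8A and ATG8F lay within 0.02 log2 units of WT, with overlapping libraries and SE of 0.30 and 0.27. With the length trend removed ATG8A (0.72, adjusted p 0.00259) and ATG8D (0.52, adjusted p 0.00343, against -0.30 with the trend) were called higher, which made 4 higher and 0 lower, beside 17.1% and 33.8% of all genes. So 2 members were called higher and 2 lower, where 18.1% of all genes were called higher, 36.1% lower and 54.2% either way. The 2 lower calls were lost under TMM (ATG8B -0.56, adjusted p 0.207; ATG8G -0.55, adjusted p 0.212), median-of-ratios scaling, edgeR and DESeq2, with the length trend removed, and without either atg7-2 library or WT library 1; without WT library 2 that of ATG8G was lost (adjusted p 0.126). Leaving out 1 starved library leaves 1 in its group, so the count of members called without it is not read as a result about the family. Median-of-ratios scaling moved the median of all genes by 0.206 log2 units, and higher genes were 48.8% of all calls under it, against 33.4% without. ATG8H kept its call in all 15 alternatives, at 2.27 to 3.47. ATG8E kept its call under each scaling and count tool, and was 1.91 with the length trend removed (adjusted p 8.52e-08), but lost it without either atg7-2 library (adjusted p 0.082 and 0.0722) and without WT library 2 (0.12).

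In starved bes1-D leaves ATG8D had 149 and 257 RPM, against 94.1 and 79.9 RPM in starved WT leaves, a change of 1.17 (SE 0.28; adjusted p 0.00231). ATG8E had 622 and 1189 RPM against 348 and 289 RPM, a change of 1.44 (SE 0.36; adjusted p 0.00426), and ATG8C 103 and 155 RPM against 87.1 and 64.6 RPM, a change of 0.75 (SE 0.28; adjusted p 0.0457). These are the members that stood higher in unstressed bes1-D, and they are 3 of 9 called, where 9.5% of all genes were called higher and 25.4% either way. Every member but ATG8I was higher in both bes1-D libraries than in both WT libraries, as were 21.8% of all genes. The calls rest on the second bes1-D library: without it 0 of 9 passed (ATG8E 0.97, adjusted p 0.201; ATG8D 0.78, adjusted p 0.157), and without the first 5 did, beside 35.4% of all genes called either way. Without WT library 2, 1 member passed (ATG8E adjusted p 0.057, ATG8C 0.338), and without WT library 1 ATG8C did not (0.0519). ATG8C was also lost under TMM (adjusted p 0.0511), with no filter (0.0536) and with the compared libraries alone (0.151). Shares of all genes called without the second bes1-D library and without WT library 2 are not given here. The counts of members in those fits are therefore not read as a result about the family. Median-of-ratios scaling called 5 (14.4% of all genes called higher) and moved the median of all genes by 0.223 log2 units, higher genes being 55.3% of all calls under it and 37.3% without. edgeR and DESeq2 called 6 each, beside 13.4% and 16.1% of all genes called higher.

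In starved bri1-301 leaves ATG8H had 100 and 34.9 RPM, against 161 and 167 RPM in WT, a change of -1.46 (SE 0.39; adjusted p 0.0437), and was the 1 member called, where 1.65% of all genes were called lower and 2.16% either way. The call was lost without bri1-301 library 2 (-0.71, adjusted p 1), without WT library 1 (adjusted p 0.242) or 2 (0.218), with the length trend removed (-0.98, adjusted p 0.0814), with edgeR (adjusted p 0.0513) and with the compared libraries alone (0.767); 5 members were called, all lower, without bri1-301 library 1, beside 9.24% of all genes called lower. Starved DSK2 RNAi leaves had 0 of 9 called (15.2% of all genes called), with 4 at an unadjusted p under 0.05, where 34.4% of all genes were. Both DSK2 RNAi libraries were below both WT libraries in 8 of 9 members, as in 34.1% of all genes, with log2 changes of -0.83 to -0.49 for those 8. ATG8I, for example, had 65.5 and 61.0 RPM in DSK2 RNAi and 124 and 103 RPM in WT (adjusted p 0.081). edgeR called 0 and DESeq2 1, and the fit to the compared libraries alone called 6, all lower, beside 9.81% of all genes called lower and 28.1% either way. For edgeR and DESeq2 the shares of all genes called here are not given, so those counts are not read as a result about the family.

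**Figure D4:**
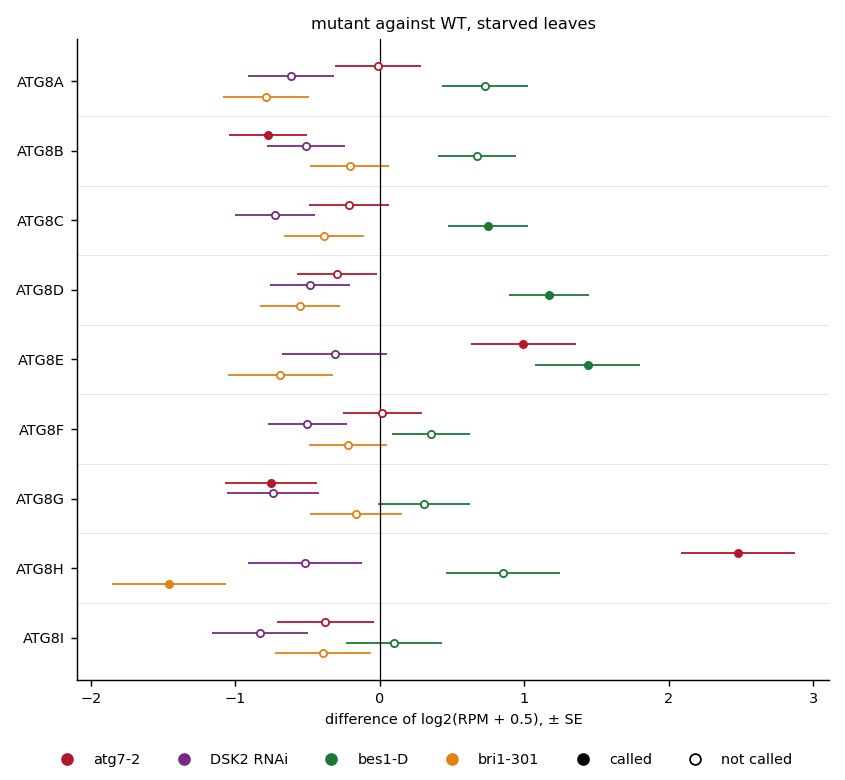
Difference of log2(RPM + 0.5) between each mutant and WT in starved leaves for the 9 ATG8 transcripts; points are limma estimates, bars the SE, filled where called. ATG8H is at 2.48 in atg7-2 and at -1.46 in bri1-301, and ATG8C, ATG8D and ATG8E are filled in bes1-D.

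Whether a mutant's starvation response itself differed from that of WT was tested as an interaction. In atg7-2 the ATG8H response exceeded that of WT by 1.96 log2 units (SE 0.51; adjusted p 0.00331), and in all 23 alternatives it passed, at 1.75 to 2.88. The ATG8B response was smaller by a difference of -1.15 (SE 0.35; adjusted p 0.0107). That call was lost under median-of-ratios (-0.81, adjusted p 0.192) and TMM scaling (-0.92, adjusted p 0.127), edgeR (-0.94, adjusted p 0.126), DESeq2 (-0.81, adjusted p 0.188) and without WT starvation library 1 (-1.02, adjusted p 0.0633). ATG8E, higher in starved atg7-2, did not pass this test (0.56, SE 0.47, adjusted p 0.366), but passed with the length trend removed (1.41, adjusted p 0.000681). The 1 higher and 1 lower call stand beside 9.76% of all genes called higher, 28.2% lower and 37.9% either way. Higher genes were 25.7% of those calls and 51.9% under median-of-ratios scaling, which moved the median of all genes by 0.263. For the other 3 mutants limma called 0 members under starvation (0.207% of all genes in DSK2 RNAi, 4.45% in bes1-D, 0.893% in bri1-301), with 0, 1 and 1 at an unadjusted p under 0.05 (14.6%, 14.5% and 8.12% of all genes), and edgeR and DESeq2 called 0. In bri1-301 3 were called, all lower, without bri1-301 starvation library 1, beside 3.46% of all genes called lower. Under dehydration 0 members and at most 0.0656% of all genes were called in any of the 4 interactions, with 0 members at an unadjusted p under 0.05 (1.81% of all genes in atg7-2, 2.68% in DSK2 RNAi, 4.25% in bes1-D and 1% in bri1-301) and 0 by edgeR and DESeq2. The bes1-D and bri1-301 responses given above are therefore not shown to differ from that of WT.

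The other genes of the pathway were taken as 38 genes in 5 lists, of which 37 were tested. In starved WT leaves 12 of 37 were called higher and 3 lower, with a median log2 change of 0.29, beside 24.7% of all genes higher, 35.7% lower and a median of -0.26. Raised were ATG7, the activating enzyme (43.0 ± 13.7 RPM in starved leaves and 11.3 ± 0.89 RPM in controls; log2 1.85, adjusted p 5.92e-06), AT1G77890, counted with the lipid kinase genes but without an autophagy name in the reference (1.83), ATG18F, of a family of lipid-binding proteins (1.64), its relative ATG18B (1.03), ATI1, which binds ATG8 (1.45), and ATG101 of the ATG1 kinase complex (0.91). The 3 lower calls were VPS34, the lipid kinase (-1.02, adjusted p 0.0229), ATG18D, of the same family as ATG18F (1.14 ± 0.14 RPM in starved leaves and 2.60 ± 0.22 RPM in controls; -0.91, adjusted p 0.000334), and ATG10, which joins ATG12 to ATG5 (-0.76). The VPS34 call was lost without WT control library 2 and without WT starvation library 1.

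In starved atg7-2 leaves 28 of the 37 were called higher and 3 lower, beside 22.3% of all genes higher and 47.2% lower. Largest in their lists were ATG11, a scaffold of the kinase complex (722 ± 18.8 RPM in starved atg7-2 leaves, 48.2 ± 11.7 RPM in atg7-2 controls; log2 3.92, adjusted p 6.53e-08), AT1G77890 (3.36), ATG18F (3.16), ATG7 (2.21) and DSK2A (0.92). Next in their lists were ATG9, the membrane protein of the forming vesicle (3.13), VPS15, the partner of VPS34 (2.80), and ATG3, which conjugates ATG8 (1.35). Against starved WT, 25 of the 37 were higher in starved atg7-2 and 2 lower, beside 18.1% of all genes higher and 36.1% lower, with a median of 1.34, against -0.27 over all genes. The median over the ATG8 genes in that comparison was -0.21. With the length trend removed the count of the 37 was 24 higher and 1 lower, but neither median is given under that setting. ATG8 genes whose call then changed moved up: ATG8A (0.72, against -0.01), ATG8D (0.52, against -0.30), ATG8B (-0.44, against -0.77) and ATG8G (-0.28, against -0.75). The medians above are those with the trend left in, and whether they differ without it is not shown here. By list, in starved atg7-2 against starved WT, 4 of 9 conjugation genes and 7 of 8 of the ATG1 kinase complex were called higher. So were 8 of 9 tested of ATG9, ATG2 and ATG18, 5 of 6 of the lipid kinase complex and 1 of 5 receptors. The 2 lower calls were conjugation genes, as were the 3 lower calls of starved atg7-2 leaves against atg7-2 controls. In DSK2 RNAi, bes1-D and bri1-301 under starvation 17, 15 and 8 of the 37 were called higher and 2, 3 and 3 lower against their controls. Of all genes 24.9% were called higher and 36% lower in DSK2 RNAi, 26.1% and 39.9% in bes1-D and 21.8% and 32.3% in bri1-301. Dehydration called 0 higher in any genotype and 1 lower, in DSK2 RNAi. Against dehydrated WT, however, 12 of the 37 were higher in dehydrated atg7-2 and 0 lower, with a median of 0.63, against 0.15 over all genes, of which 9.42% were called either way.

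Across the 15 group means of log2(RPM + 0.5) the members fell into different company, given as Pearson's r and as a description, since libraries of a group share treatment and genotype. Within the family the most alike were ATG8F and ATG8I (r = 0.945), ATG8C and ATG8D (0.924) and ATG8A and ATG8B (0.915); the least alike were ATG8G and ATG8H (0.11). Of 7423 other genes with a symbol and at least 5 RPM in some group, ATG8H was most like PDE337 (0.985), the asparaginase ASPGB1 (0.981) and MEE66 (0.981). ATG8B was most like the ubiquitin-conjugating enzyme UBC10 (0.989), ATG8A like the SNARE VTI1B (0.976), ATG8E like PRA1.F4 (0.948), ATG8D like PRA1.A1 (0.968), ATG8C like SKP1 of ubiquitin ligases (0.934), ATG8G like ATMAK3 (0.927), and ATG8F and ATG8I both like the ubiquitin-conjugating enzyme UBC36 (0.952 and 0.951).

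The 250 bases before the annotated start of each gene were searched on both strands for 7 short motifs, and the windows of ATG8H and ATG8E are shown because these rose above WT in starved atg7-2. Capitals mark ACGTG, the core of sites bound by ABA-related bZIP factors, and GATAAG, on either strand. ATG8H lies at chr3:1956398-1956647 on the minus strand and ATG8E at chr2:18624014-18624263 on the plus strand of TAIR10.1; the submitters' notes name TAIR10.
ATG8H: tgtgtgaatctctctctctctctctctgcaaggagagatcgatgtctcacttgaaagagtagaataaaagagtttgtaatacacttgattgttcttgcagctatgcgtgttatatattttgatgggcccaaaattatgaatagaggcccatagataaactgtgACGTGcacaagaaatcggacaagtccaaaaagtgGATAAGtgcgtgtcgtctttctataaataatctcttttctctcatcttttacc
ATG8E: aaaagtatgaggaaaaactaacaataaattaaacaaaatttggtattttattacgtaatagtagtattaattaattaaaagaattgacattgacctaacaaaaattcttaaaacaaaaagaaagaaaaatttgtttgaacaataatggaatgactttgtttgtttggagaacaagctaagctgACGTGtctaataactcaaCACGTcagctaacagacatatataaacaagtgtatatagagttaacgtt
ACGTG was present in 5 of the 9 windows (ATG8E to ATG8I), against 23.1% of 26709 windows of all genes. Of the 3 members called under starvation in all genotypes, ATG8H held it and ATG8A and ATG8B did not. GATAAG was in 2 (ATG8G and ATG8H; 12.2% of windows), TATCCA, an element known from sugar-regulated genes, in 4 (ATG8B, ATG8D, ATG8H and ATG8I; 13.7%) and TTGACC, a form of the W-box of WRKY factors, in 1 (ATG8E; 12.2%). CANNTG, which covers CACGTG, was in 8 (55.3%), while CACGTG (6.58%) and CGTGTG (5.37%) were in 0. A match is a description of letters in a window and not a site.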

How the data were processed

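Leaf RNA was sequenced as single reads of 50 bases, per the labels' protocols. The tools GSNAP and DESeq2 and the build TAIR10 appear, per the submitters' processing notes, without role or version. The authors deposited, per the file headers, RPM values (a scaled read signal) and yes or no calls for 14 comparisons. Column sums were 985308 to 1023136. Within 0.01 reads, 100% of values were whole multiples of 1 read (26.3 to 29.8 reads per RPM), which gave the recovered reads; the sources used here do not give the divisor the authors used. The 4591 lines without a gene identifier were left out. Of 64 labelled libraries, 24 without columns were not analysed here.

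limma 3.58.1 (R 4.3.3), with a trend of variance on mean, was run on log2(RPM + 0.5) of genes with at least 1 RPM in 2 libraries, over 15 groups (25 residual degrees of freedom). Two-sided p-values were adjusted by Benjamini-Hochberg over 19824 genes within each of 30 comparisons, and a gene was called at adjusted p under 0.05. The design had been written for RPM with a fixed sum, and the test was kept. Alternatives were TMM and median-of-ratios scaling, pseudocounts of 0.1 and 1, no filter and 5 RPM, the compared libraries alone, removal of the length trend, edgeR 4.0.16 and DESeq2 1.42.0 on recovered reads, replicate blocks, and leaving out each library; leaving out 5 libraries that stood apart by length slope was chosen after seeing the data. In 4 comparisons all 3 same-numbered pairs deviated together (r of 0.16 to 0.811): dehydration in bes1-D and bri1-301, DSK2 RNAi against WT in controls, and bes1-D against WT under dehydration. Where only 2 such pairs exist, both had r over 0.1 for starvation against control in WT (0.311 and 0.369). Both also did in starved atg7-2 (0.261), DSK2 RNAi (0.35) and bri1-301 (0.582) against WT. There, groups of 2 libraries give the same r for both pairs. The fit was also run on simulated reads in which some genes were raised in starved WT alone. These reads had no differences in length slope between libraries, so that run, whose outcome is not given here, does not speak to such differences. All members are named; of the other autophagy lists, up to 3 called genes each by size, and by likeness the 3 highest r. Members and lists were chosen with earlier results of these data known. Lengths, names and sequences are of RefSeq TAIR10.1. Values per kb and coding sequences use the transcripts with the longest coding sequence. Length slopes, removal of the length trend and shared windows use the longest transcript of each gene.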

Additional observations from a re-analysis of the deposited data

Results flagged for a closer look

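The starvation response of atg7-2 differed from that of WT, by the interaction term, in 2 ATG8 genes, where the same test called 9.76% of all genes higher, 28.2% lower and 37.9% either way. For ATG8H the difference was 1.96 log2 units (limma adjusted p 0.00331): starved leaves had 795 and 1059 RPM in atg7-2 and 161 and 167 RPM in WT, while controls had 27.3 to 38.5 RPM in atg7-2 and 13.7 to 27.1 RPM in WT. For ATG8B the difference was -1.15 (adjusted p 0.0107): starved leaves had 113.2 and 119.5 RPM in atg7-2 and 218 and 182 RPM in WT, while controls had 48.1 to 60.4 RPM in atg7-2 and 34.8 to 50.7 RPM in WT. The ATG8B call was lost under median-of-ratios scaling (adjusted p 0.192), TMM (0.127), edgeR (0.126) and DESeq2 (0.188) and without WT starvation library 1 (0.0633).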

How the results depend on the processing

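None of the 33 called changes of ATG8 genes took the other sign under an alternative that was run. Of the 237 that were not called, 122 did under at least 1, and 3 were then called on that other side: ATG8A and ATG8D higher in starved atg7-2 against WT with the length trend removed, and ATG8C lower in starved bri1-301 without its first starved library. Counts of called members in this section stand without the share of all genes called, which also moved with the setting. They describe the processing and are no result about the family. These counts moved as follows. For starvation against control, a block of genotype by number called 8 in WT (6 by number alone, against 4), removing the length trend called 5 in DSK2 RNAi (against 3), and the compared libraries alone called 1 in bri1-301 (against 3). For dehydration in DSK2 RNAi, the compared libraries alone and the length trend each called 1 (against 0). For atg7-2 against WT, the length trend called 1 in controls and 3 in dehydrated leaves (against 0); pseudocount 1, the 5 RPM filter, the replicate block by number and leaving out the libraries apart by length slope each called 1 in dehydrated leaves. DESeq2 called 1 in dehydrated DSK2 RNAi and bri1-301 against WT (against 0). In starved leaves against WT, median of ratios, TMM, edgeR and DESeq2 each called 2 in atg7-2 (against 4); median of ratios, DESeq2 and the block each called 1 and the compared libraries 6 in DSK2 RNAi (against 0); median of ratios called 5 and edgeR and DESeq2 6 in bes1-D (against 3); and the compared libraries, the length trend and edgeR called 0 in bri1-301 (against 1). The atg7-2 by starvation interaction had 1 under median of ratios, TMM, edgeR and DESeq2, 3 with the length trend removed, with the compared libraries alone and with the block of genotype by number (against 2). The cause was not tested.

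Leaving out 1 library gave, for starvation against control, 3 to 4 calls in WT, 4 in atg7-2, 3 in DSK2 RNAi, 7 to 9 in bes1-D and 2 to 9 in bri1-301; for starved mutants against WT, 1 to 2 in atg7-2, 0 in DSK2 RNAi, 0 to 5 in bes1-D and 0 to 5 in bri1-301; for dehydrated mutants against WT, 0 to 1 in atg7-2, DSK2 RNAi and bri1-301 and 0 in bes1-D; and for starvation interactions, 1 to 3 in atg7-2, 0 to 3 in bri1-301 and 0 in the others. Dehydration against control, unstressed mutants and dehydration interactions stayed at 0. Blocks by replicate number, which the labels do not tie to a batch, changed no other count by over 1.5 times. Not divided by length, ATG8H was 32.8% of the pool in starved atg7-2 leaves and 8.78% in starved WT leaves. Where a starved group was left with 1 library, that library was assumed to vary like the other groups.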

Other observations

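The authors' deposited table marks 9 of the 9 ATG8 genes as changed by starvation in WT, 8 in atg7-2 (not ATG8G), 5 in DSK2 RNAi (ATG8A, ATG8B, ATG8D, ATG8E and ATG8H), 9 in bes1-D and 3 in bri1-301 (ATG8A, ATG8B and ATG8H). For dehydration the authors' deposited table marks ATG8A and ATG8E in DSK2 RNAi and none elsewhere, and for unstressed leaves it marks ATG8C, ATG8D and ATG8E in bes1-D against WT and none in the other lines. Of the genes that the authors' deposited table marks yes or no, those marked yes are, for starvation, 74% in atg7-2, 65.6% in DSK2 RNAi, 64% in bes1-D, 46.4% in bri1-301 and 65% in WT, and 18.8% for dehydration in DSK2 RNAi and 21.5% for unstressed bes1-D. The sources used here do not give its test or threshold.

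DIN6, an asparagine synthetase gene known as a marker of dark starvation, averaged 14363 RPM in starved atg7-2 leaves and 4657 RPM in starved WT leaves, and 1259 RPM in atg7-2 controls and 767 RPM in WT controls. The senescence protease gene SAG12 had 19.9 to 204.6 RPM in atg7-2 controls, against at most 2.79 RPM in WT controls, and 38.1 to 206 RPM in dehydrated atg7-2 leaves, against 1.65 to 4.30 RPM in dehydrated WT leaves.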
